A study of Mus musculus with 9 samples.

Results

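Interferon-stimulated genes are the antiviral genes that a cell turns on, or turns up, after type I or type II interferon binds its receptors. Here 40 such genes were followed by the H3K27 acetylation (H3K27ac) of their loci in naive CD8+ T cells with and without the transcription factors Tcf1 and Lef1. The 40 genes were named individually, all 40 were found in the mouse mm9 annotation under their listed symbol, and they stand among 22380 annotated protein-coding genes. The locus of a gene was its body plus 50 kb upstream of the transcription start site (TSS), and its promoter was the 1 kb on either side of a TSS of a protein-coding transcript.

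The samples were naive CD8+ T cells sorted from spleen as GFP+ TCRbeta+ CD62Lhi CD44lo-med CD8+ cells, with 4 H3K27ac libraries and 1 input from wild type (WT) mice and 3 H3K27ac libraries and 1 input from mice labelled Tcf1-/-Lef1-/- (dKO). Mice of both genotypes carried hCD2-Cre, a recombinase that works mainly in post-thymic T cells, and a Rosa26 GFP reporter that marks cells in which Cre has acted. The dKO mice were in addition homozygous for floxed Tcf7, the gene of Tcf1, and floxed Lef1, so WT and dKO cells differed in these floxed alleles and not in Cre or GFP. Mice of both genotypes were on the C57BL/6 background, of either sex and 6 to 12 weeks old. Both factors are known from the T cell lineage as regulators that bind one DNA sequence and overlap in function.

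H3K27ac is a histone mark found at active promoters and enhancers, and ChIP-seq counts the DNA fragments that carry it. The deposited values are enriched stretches, called islands, each with its read count, in 1 list per genotype made after the replicates had been pooled. The WT list held 65563 islands with 82668007 counts and the dKO list 82213 islands with 57665047 counts, so dKO islands were more numerous and thinner, at 134.3 against 210.5 counts per covered kb. Counts were therefore divided by the total of their list before any ratio was taken. Overlapping islands of both lists were merged into regions, and a region that touched a locus was counted whole. Locus counts can thus include signal outside the gene body and the 50 kb upstream. At Oas2, a gene of 19.5 kb, the promoter region reached 104.3 kb downstream of the TSS. With 1 list per genotype there was no replicate spread and no test, and each ratio is given with a 95% interval that covers counting error only, since without molecular identifiers 1 molecule can give several reads. Loci that differed 1.5 times or more in one direction were called changed, and their number is set beside the share of all genes that passed the same mark. In pooled cells, fewer cells with the mark and less mark per cell cannot be told apart. As a check of the cell type, all 8 CD8 T cell marker genes had promoter islands in both lists, but so did 3 of 5 B cell markers, 1 of 3 NK cell markers, 4 of 5 myeloid and dendritic markers and 2 of 2 CD4 T cell markers. Pax5, Ebf1, Ncr1, Klrk1 and Siglech had none in either list. The summed loci of the CD8 T cell markers held 3220 CPM (counts per 1000000 of the total of the list) in WT and 2920 in dKO, those of the CD4 markers 268 and 327, those of the B cell markers 533 and 599, those of the NK markers 200 and 231, and those of the myeloid and dendritic markers 586 and 600. The part of other cells in the values below was not tested.

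Type I interferon acts through the receptor chains Ifnar1 and Ifnar2, the kinases Jak1 and Tyk2, and transcription factors that bind the interferon-stimulated response element (ISRE) in the promoters of these genes. Interferon gamma acts at a different element, the gamma-activated site (GAS). The products block viruses at entry, replication, translation and release, and many of these genes also have a low level of activity in resting cells that were never infected.

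The members are grouped by their response to interferon, and not all of them held an ISRE-like match. Such a match lay between 250 bases before and 50 bases after a TSS in 23 of the 40 members, or 57.5%. Over 22372 protein-coding genes the share was 5.86%. The match was 2 GAAA half-sites with 2 bases between them, GAAANNGAAA, on either strand. GAS matches, TTCNNNGAA, were found in 13 members, or 32.5%, against 11.8% of genes, and the Tcf/Lef sequence ATCAAAG in 0 of 40 members against 5.13% of genes. Such a match describes letters and not a bound site. Promoters of the members also held fewer CpG dinucleotides, with a median of 7 in 300 bases against 15 over all genes. For a gene with several TSSs, the window with the most CpG was taken. The stretches shown here come from the mm9 genome, are 60 bases long, read 5′ to 3′ in the direction of transcription, and carry the half-sites and the bases between them in capitals. They are shown because their genes are the highest members of 4 role groups, and because Oas3 and Bst2 lie in super enhancers listed by the study.
Isg15: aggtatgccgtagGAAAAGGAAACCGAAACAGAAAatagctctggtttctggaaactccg
Oas1a: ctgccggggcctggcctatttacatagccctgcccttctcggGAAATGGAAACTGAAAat
Oas3: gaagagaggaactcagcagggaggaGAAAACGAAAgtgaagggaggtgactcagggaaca
Bst2: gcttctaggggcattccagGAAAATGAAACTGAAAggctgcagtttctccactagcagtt
Gbp3: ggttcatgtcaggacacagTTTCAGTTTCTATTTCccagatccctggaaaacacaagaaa
They lie at chr4:155574959-155575018 on the minus strand for Isg15, chr5:121357537-121357596 on the minus strand for Oas1a, chr5:121227709-121227768 on the minus strand for Oas3, chr8:74061461-74061520 on the minus strand for Bst2 and chr3:142222944-142223003 on the plus strand for Gbp3. Isg15 had 3 overlapping matches in a row, Oas1a, Bst2 and Gbp3 had 2, and Oas3 had 1, while the Gbp3 matches read in the opposite direction, as TTTC.

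Nearly all of these genes were acetylated in resting cells of both genotypes. Islands overlapped the promoter of 39 of the 40 members in both lists, against 59.9% of all protein-coding genes. The exception was Ifi44, an interferon-induced gene on chromosome 3, at 151393886 to 151412911, which had no island anywhere from its body to 50 kb upstream in either list. Promoter islands of members were not dense compared with other genes, with a median of 262.5 counts per kb in WT against 311.4 over all genes and 176.8 in dKO against 182.4. The densest in WT was Parp14 with 469 counts per kb and the thinnest Oas1a with 128. In dKO they ran from 90.5 counts per kb at Iigp1 to 263 at Irgm1.

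After loss of Tcf1 and Lef1 the loci as a set changed little in their share of the mark. The dKO to WT log2 ratio had a median of -0.076 over the 39 members with islands and -0.022 over 16518 protein-coding genes. Of the members 16 were higher and 23 lower in dKO, which is 59% lower against 53% of all genes. The distinct regions of all members together held 363653 counts in WT and 250599 in dKO, a log2 ratio of -0.017 (-0.025 to -0.010). A ratio of 1.5 or more toward dKO was reached by 1 member, Oas1a, where 7.05% of all genes did so, and toward WT by 2 members, Iigp1 and Mx2, where 9.27% did so. Both counts lie below those shares, and the values that follow describe which members stood at either end.

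**Figure D1:**
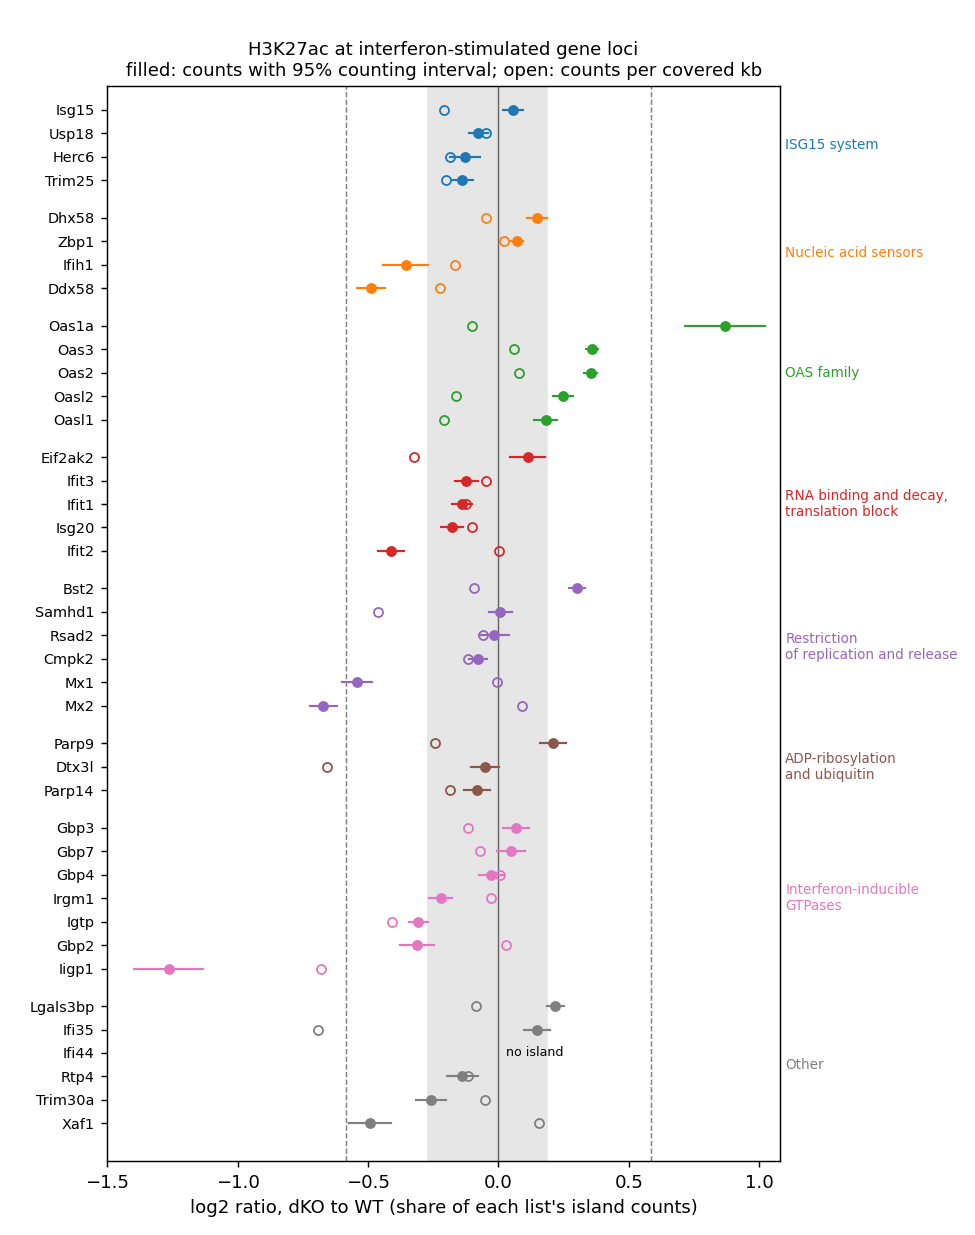
Log2 ratio of H3K27ac island counts, dKO to WT, for each member's locus (filled points, with the 95% counting interval as a line) and the log2 ratio of counts per covered kb (open points), by role group. The grey band is the interquartile range of all protein-coding genes and the dashed lines mark a ratio of 1.5. Iigp1 and Mx2 lie beyond the left line and Oas1a beyond the right one, all 5 OAS family members lie right of 0, and the open point of Oas1a is left of 0.

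The 40 genes do not form 40 independent loci. Members sit side by side in 7 clusters that together hold 17 of them, so that the 40 genes occupy 30 separate places, and neighbours share regions. The clusters were Ifit1, Ifit2 and Ifit3; Mx1 and Mx2; Oas2 and Oas3; Oasl1 and Oasl2; Rsad2 and Cmpk2; Parp9, Parp14 and Dtx3l; and Gbp2, Gbp3 and Gbp7. Merging overlapping WT and dKO islands gave 217 distinct regions over the members. Of these 75.6% had islands in both lists, 8.76% in WT only and 15.7% in dKO only, against 59.1%, 12.8% and 28.1% of the 76633 regions of the genome. Regions found in 1 list were small, with a median of 249 counts for WT only and 176.5 for dKO only.

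The ISG15 system conjugates the ubiquitin-like protein Isg15 to targets and removes it again. All 4 members had promoter islands in both lists and stood close to WT, between -0.14 and 0.056. Isg15, the modifier itself, was the highest, with 12475 counts in WT and 9045 in dKO and a log2 ratio of 0.056 (0.017 to 0.095). That sign rests on a region 14.3 kb upstream with promoters of 3 other genes, at 0.37, since the promoter region stood at -0.058, the promoter island at -0.30 and the locus per covered kb at -0.21. The lowest was Trim25, a ubiquitin ligase that activates the RNA sensor Ddx58, with 13217 counts in WT and 8375 in dKO, a log2 ratio of -0.14 (-0.18 to -0.10). Usp18, the protease that takes Isg15 off its targets, and Herc6, the ligase that puts it on in mice, lay in between. The Isg15 promoter region was 1 WT island of 45.4 kb that also held the promoters of Agrn and AW011738 and was split into 4 islands in dKO.

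The nucleic acid sensors split by gene. Ddx58, which encodes the viral RNA sensor RIG-I, was among the 5 lowest members, with 8551 counts in WT and 4250 in dKO, a log2 ratio of -0.49 (-0.54 to -0.44). Its promoter island held 2861 and 1380 counts, and 4 of its 5 regions stood below WT or in the WT list alone. Ifih1, the sensor of long double-stranded RNA, stood at -0.36 (-0.44 to -0.27). Dhx58, a regulator of both, was the highest sensor at 0.15 (0.11 to 0.19), from 13358 counts in WT and 10328 in dKO, and Zbp1, a sensor of Z-form nucleic acids, was at 0.071 (0.048 to 0.094). Nearly all counts of Zbp1 came from 1 region of 150.8 kb that also held the Pmepa1 promoter. The only other region, 6.0 to 11.8 kb downstream of the TSS, held 209 counts in WT and 532 in dKO, a log2 ratio of 1.87 (1.64 to 2.10), which is the value of the locus when most of a region must lie in the window. Neither of the lower sensors reached a ratio of 1.5.

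The OAS family makes the second messenger that switches on the RNA-cutting enzyme RNase L, except for Oasl1, which lacks this activity and is known as a repressor of Irf7 translation. All 5 members stood higher in dKO (median of the log2 ratios 0.35), and they occupy 3 places of chromosome 5. Oas1a held 612 counts in WT and 780 in dKO, a log2 ratio of 0.87 (0.72 to 1.02) or 1.83-fold, from the thinnest promoter islands among the members in WT. Of the dKO counts 176 came from an island of the dKO list alone, 41.9 kb upstream. Within the promoter region of Oas1a, which it shares with its paralog Oas1d, the counts were 612 and 604, a log2 ratio of 0.50 (0.34 to 0.66), under the 1.5 mark. Of these 604 counts 398 lay in a separate island at the Oas1d promoter, and the island at the Oas1a promoter itself was lower in dKO, with 612 and 206 counts and a log2 ratio of -1.05 (-1.28 to -0.82).
Oas2 and Oas3 are neighbours and share most of their counts. The Oas3 locus held 30881 counts in WT and 27617 in dKO, a log2 ratio of 0.36 (0.34 to 0.38), and the Oas2 locus 27775 and 24751, a log2 ratio of 0.35 (0.33 to 0.38). Between positions 121095601 and 121207800 of chromosome 5, the WT list had 3 islands covering 93.2 kb and the dKO list 1 island of 111.8 kb that also held the promoters of Rasal1 and Dtx1. In WT the Oas2 gene body was left uncovered downstream of the promoter island, and in dKO it was covered whole. The super enhancer assigned to Oas3 in the study's list of those stronger in dKO, chr5:121000201-121342600, covers both genes and stood at 0.33 (0.31 to 0.35). That list was chosen on these same libraries, so its direction is not independent evidence. Oasl2 stood at 0.25 (0.21 to 0.29) and Oasl1, the lowest of the family, at 0.18 (0.14 to 0.23). Per covered kb only Oas2 and Oas3 were above WT, at 0.081 and 0.061, and the family median was -0.10. Reads that mapped to more than 1 place were left out by the authors, so values at near-identical paralogs, such as the Oas1 genes, are uncertain.

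**Figure D2:**
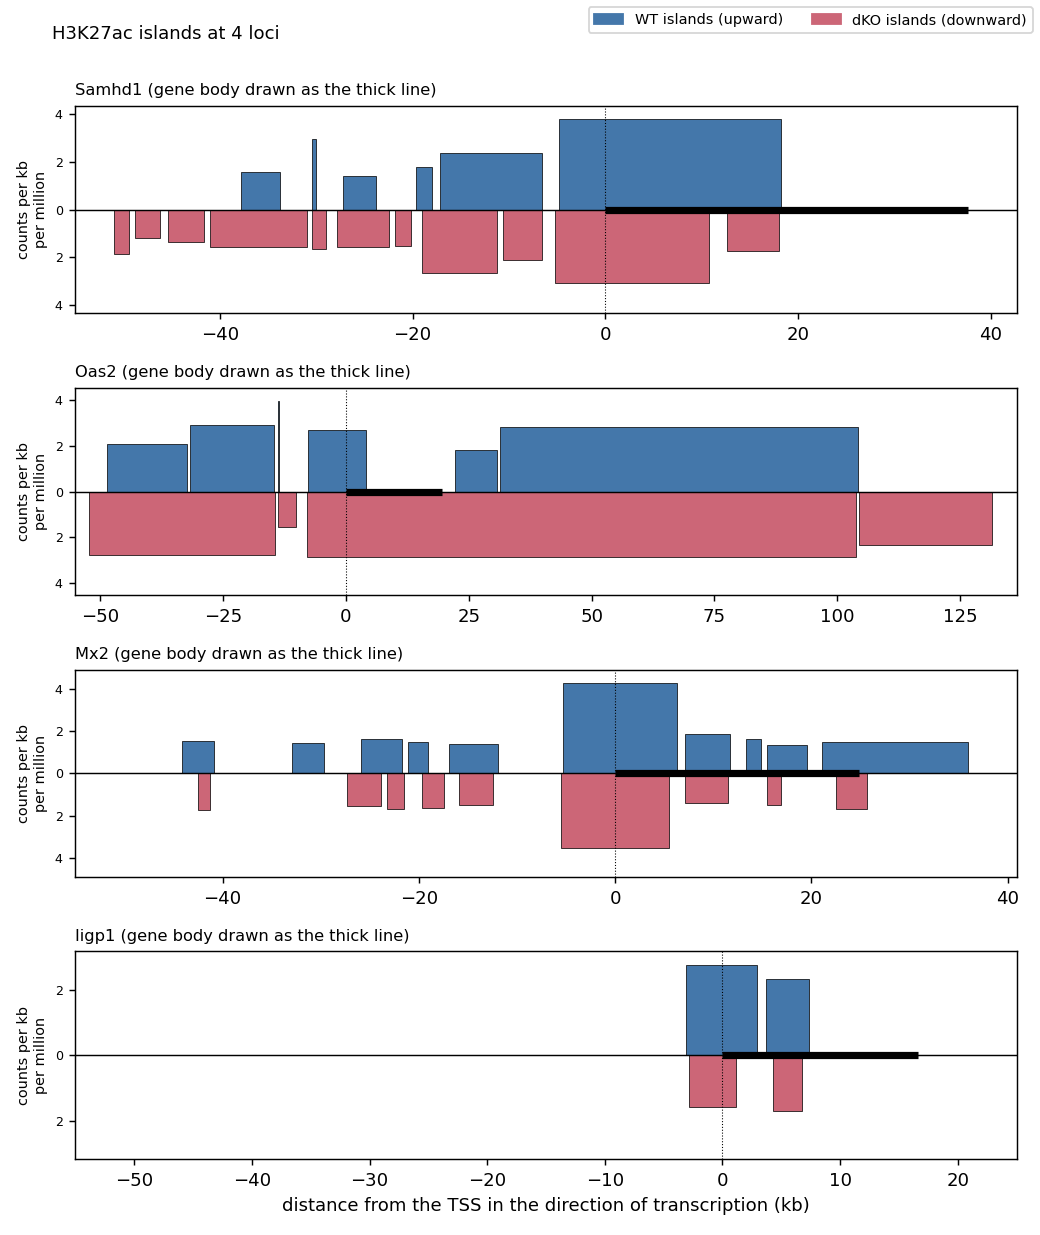
H3K27ac islands of the WT list (upward) and the dKO list (downward) at 4 member loci, as counts per kb divided by the list's total (CPM per kb) against distance from the TSS in kb. At Oas2 a single dKO island of 111.8 kb faces 3 WT islands, at Mx2 the WT islands downstream of the promoter are wider than those of dKO, at Samhd1 the WT promoter island is denser while 4 dKO islands upstream have no WT counterpart, and at Iigp1 both dKO islands are lower and narrower.

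The genes that bind viral RNA, cut it or stop its translation stood slightly below WT in 4 of 5 cases. Eif2ak2, the kinase PKR that halts translation on double-stranded RNA, was the highest, with 4081 counts in WT and 3076 in dKO and a log2 ratio of 0.11 (0.044 to 0.18). Its promoter island was lower in dKO at -0.28, and the locus stood at -0.32 per covered kb, at -0.28 with 1 kb upstream and at -0.085 over regions in both lists. Ifit2, which binds viral RNA as do its neighbours, was the lowest, with 9173 and 4809 counts and a log2 ratio of -0.41 (-0.46 to -0.36). Its promoter island stood at -0.15 and the regions upstream of it at -0.72 (-0.79 to -0.64), with 2 of them in the WT list alone. Ifit1, Ifit3 and the exonuclease gene Isg20 were between -0.18 and -0.12.

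Factors that restrict replication or release ran from -0.67 to 0.30. Mx2, a dynamin-like antiviral GTPase, held 9395 counts in WT and 4116 in dKO, a log2 ratio of -0.67 (-0.72 to -0.62) or 1.59-fold lower. Its promoter island differed less, with 4080 and 2238 counts and a log2 ratio of -0.35 (-0.42 to -0.27). The larger part lay in and past the gene body: the region 21.1 kb downstream of the TSS, chr16:97778801-97793600, held 1804 counts over 14.8 kb in WT and 306 over 3.2 kb in dKO (log2 ratio -2.04). A further 2 regions of the locus were found in WT only. Mx1, its neighbour and a block to influenza viruses, held 7550 and 3616 counts, a log2 ratio of -0.54 (-0.60 to -0.49), with 2 regions in WT only, of which the one 5.7 kb into the gene, within 1 kb of a downstream TSS, held 717 counts. The C57BL/6 strain, the background of these mice, is known to carry a defective Mx1 allele. Per covered kb the loci stood at 0.089 for Mx2 and -0.0064 for Mx1, with islands covering 54.2 kb in WT and 32.0 kb in dKO at Mx2. The Mx2 promoter region kept nearly its width and held 351.7 and 203.5 raw counts per kb. After division by the list totals this was -0.27 on the log2 scale, where promoter islands of all genes had a median of -0.20.
Bst2, the tetherin that holds budding virus at the cell surface, was the highest of this group. It held 17994 counts in WT and 15459 in dKO, a log2 ratio of 0.30 (0.27 to 0.33), and -0.095 per covered kb. The promoter region stood at 0.097 and most of the difference lay in a region 38.1 kb upstream, which holds 3 promoters of other genes and rose from 26.4 to 43.4 kb of islands, with a log2 ratio of 0.52. The super enhancer that the study's list assigns to it, chr8:73975201-74356600, stood at 0.36 (0.34 to 0.38), with the same limit on its independence. Rsad2, the radical enzyme viperin, was at -0.017 (-0.076 to 0.041), which includes 0, and its neighbour Cmpk2, a nucleotide kinase, at -0.078.

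Samhd1, the enzyme that breaks down deoxynucleotides and so starves viral DNA synthesis, held a nearly equal share of both lists in a different layout. The locus held 10469 counts in WT and 7344 in dKO, a log2 ratio of 0.0081 (-0.035 to 0.051), over 43.0 kb in WT and 59.6 kb in dKO, or -0.46 per covered kb. The promoter region, chr2:156942801-156966200, reached from 5.2 kb upstream of the TSS to 18.2 kb into the gene and held 7171 and 3375 counts, a log2 ratio of -0.57 (-0.63 to -0.51), and -0.46 per covered kb. Upstream of it, 8 regions together stood at 0.79 (0.72 to 0.85), and 4 of these were found in dKO only. WT had 1 island in the promoter region, and dKO had 2. The second dKO island lay 12.6 to 18.0 kb into the gene and held 535 counts.
The study lists 3 DNase-accessible sites at Samhd1 among those that differed between the genotypes, and all 3 lie in this region, at 5.9, 13.3 and 15.9 kb into the gene. The study places them in its group of sites less accessible in dKO whose linked genes were more expressed in dKO. It proposes that sites of this group may act as silencers. The sequence ATCAAAG, read on the reverse strand as CTTTGAT, was found in 2 of the 3 sites at Samhd1. The one in an intron, chr2:156944956-156945146, is shown with the match in capitals, on the plus strand, because no member promoter held this sequence.
Samhd1 site: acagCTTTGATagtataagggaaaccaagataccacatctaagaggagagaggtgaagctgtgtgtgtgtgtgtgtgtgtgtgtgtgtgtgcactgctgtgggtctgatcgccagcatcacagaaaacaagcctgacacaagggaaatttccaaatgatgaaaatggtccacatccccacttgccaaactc
The other, 13.3 kb into the gene, overlaps an exon. A listed site near Oas3, 1.9 kb upstream of its TSS, held neither this sequence nor an ISRE-like match. The study lists that site as more accessible in dKO.

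Genes of ADP-ribosylation and the linked ubiquitin ligase lie together on chromosome 16 and moved little. Parp9 was the highest, with 7094 counts in WT and 5716 in dKO and a log2 ratio of 0.21 (0.16 to 0.26), and Parp14 the lowest, with 7861 and 5180 counts and -0.082 (-0.13 to -0.032). The Parp9 locus stood at 0.080 over regions in both lists and at -0.24 per covered kb. Parp9 and Dtx3l, whose products act as a pair, are read in opposite directions from 1 shared promoter island, with 2782 counts in WT and 1930 in dKO, a log2 ratio of -0.0079 (-0.092 to 0.076). The Dtx3l locus was at -0.051 in counts and at -0.66 per covered kb, as dKO islands covered 29.8 kb and WT islands 19.6 kb.

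The interferon-inducible GTPases, which coat and break the vacuoles of intracellular pathogens, held the lowest member of all. Iigp1, an effector against Toxoplasma and Chlamydia in mice, had 2056 counts in WT and 597 in dKO, a log2 ratio of -1.26 (-1.40 to -1.13), or 2.40-fold lower. Its promoter island fell from 1362 counts over 6.0 kb to 362 over 4.0 kb, and the only other region, 3.7 kb into the gene, from 694 to 235. Both regions were lower, and the promoter island was lower in density as well as in width, at 227 and 90.5 counts per kb or -0.81 on the log2 scale. Igtp, a related GTPase that regulates Iigp1, was at -0.31 (-0.34 to -0.27), Irgm1, the other regulator listed here, at -0.22 (-0.27 to -0.18), and Gbp2 at -0.31. The highest was Gbp3, a guanylate-binding protein, with 7565 and 5525 counts and 0.066 (0.016 to 0.12), and Gbp7 and Gbp4 stood at 0.047 and -0.029 with intervals that include 0. The sign at Gbp3 depended on what was counted, as its promoter region stood at -0.13. Its locus stood at -0.069 over regions in both lists, at -0.033 with 10 kb upstream and at -0.12 per covered kb. In locus counts the shared cluster of Gbp2, Gbp3 and Gbp7 held values on either side of 0, and its distinct regions together stood at -0.11 (-0.14 to -0.072).

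Among the remaining members Lgals3bp, a secreted glycoprotein, was the highest, with 16700 counts in WT and 13555 in dKO and a log2 ratio of 0.22 (0.19 to 0.25). Its regions also hold promoters of Cant1, C1qtnf1 and Engase. The locus stood at 0.12 with 10 kb upstream and at -0.085 per covered kb. The lowest was Xaf1, a promoter of apoptosis, with 3602 and 1786 counts and -0.49 (-0.57 to -0.41). The Xaf1 promoter island itself held 2753 and 1585 counts, a log2 ratio of -0.28 (-0.37 to -0.19), and 2 of the other 3 regions were found in WT only. Per covered kb it was 0.16 above WT, the highest of all members. Ifi35 stood at 0.15 in counts and at -0.69 per covered kb, with 20.8 kb of islands in WT and 37.2 kb in dKO. Trim30a, a restrainer of inflammatory signalling, was at -0.26 and Rtp4 at -0.14.

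Most of the spread among members came from island width and not from density. The SD over the 39 members was 0.380 for the log2 ratio of covered width and 0.200 for that of counts per covered kb, against 0.615 and 0.278 over all genes. The width component was the larger of the 2 in 69.2% of members and in 64% of genes. Per covered kb the median was -0.10 in members and -0.16 over all genes, and 31 of 39 members, or 79.5%, were below WT against 81.2% of genes. A ratio of 1.5 toward WT per covered kb was reached by Iigp1, Dtx3l and Ifi35, 3 of 39 where 8.17% of genes did so, and toward dKO by 0, where 0.327% of genes did so. The promoter region of Iigp1 itself stood at -0.81 per covered kb, but that of Ifi35 at -0.17 and that of Dtx3l at -0.23. Upstream regions stood at -1.08 for Ifi35 and -1.03 for Dtx3l. They include promoters of Aarsd1, Rundc1 and Rpl27 at Ifi35 and of Kpna1 at Dtx3l.

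**Figure D3:**
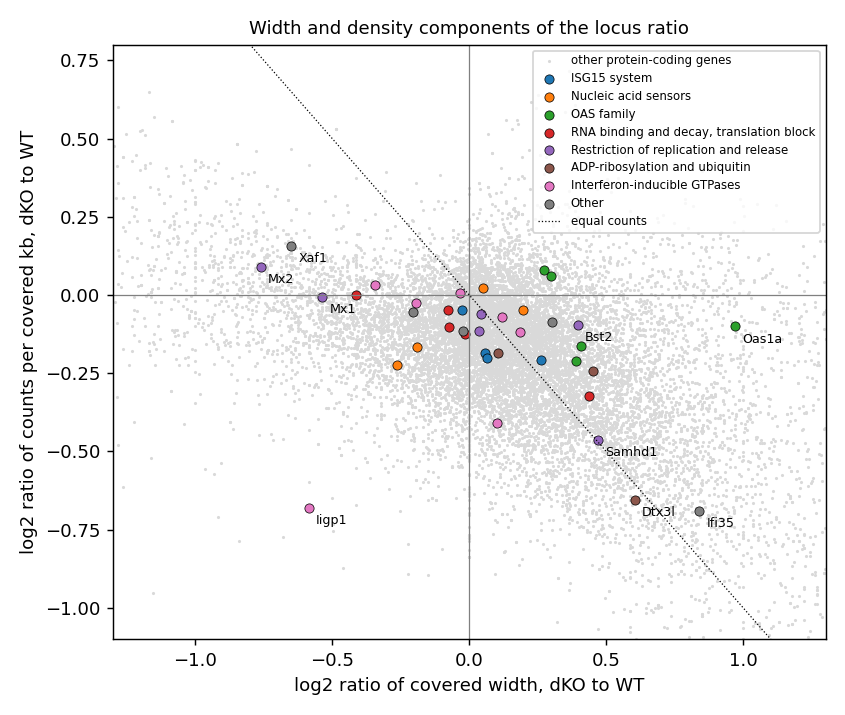
Log2 ratio, dKO to WT, of the covered island width (x axis) against that of counts per covered kb (y axis) for the 39 member loci with islands, in colour by role group, and other protein-coding genes in grey, without those beyond the axis limits. Points on the dotted line had equal shares of counts. Members spread more along the x axis, from Mx2 to Oas1a, than along the y axis, and Iigp1 is low on both.

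At promoters the counts of single islands moved with their borders. The promoter island count was at least 1.5 times higher in dKO at 4 of 39 members (Dhx58, Oas2, Oas3 and Lgals3bp) against 12.3% of genes. It was at least 1.5 times higher in WT at 8 members (Trim25, Zbp1, Oas1a, Mx1, Cmpk2, Samhd1, Igtp and Iigp1) against 20.8% of genes. Of these, all but Samhd1 had promoter islands that differed 1.5 times or more in width, as did Gbp2, so that 4 were wider in dKO and 8 wider in WT. The Oas2 promoter island went from 11.8 kb in WT to 111.8 kb in dKO, and the Zbp1 promoter island from 96.6 kb to 13.4 kb. Counted instead over the merged region at the promoter, Zbp1 stood at 0.049 (0.026 to 0.073) and Oas2 at 0.34. On that count 0 members reached 1.5 toward dKO, where 3.61% of genes did so, and 1 member, Iigp1, reached it toward WT, where 10.7% did so. The number of islands in the promoter region was larger in dKO at 12 members, larger in WT at 3 and equal at 24.

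Counts per kb of the promoter islands were also set side by side. The median log2 ratio was -0.096 in members and -0.20 over 13406 genes, and 25 of 39 members, or 64.1%, were below WT against 71.7% of genes. Only Iigp1 passed a ratio of 1.5 toward WT, where 17.3% of genes did so. Next to it were Oasl1 at -0.43, Igtp at -0.34, Lgals3bp at -0.33 and Parp14 at -0.33, and at the upper end Mx1 stood at 0.42, Bst2 at 0.30 and Zbp1 at 0.29. Several of these values rest on islands of unequal width. Per covered kb of the merged promoter region, Iigp1 remained at -0.81, Oasl1 at -0.43, Igtp at -0.35 and Parp14 at -0.33, while Lgals3bp came to -0.050, Zbp1 to 0.039, and Mx1 and Bst2 turned to -0.071 and -0.13. Per covered kb of the single promoter islands, whose widths could differ, the 23 members with an ISRE-like match had a median of -0.013. The 17 without a match, of which 16 had islands, had a median of -0.15. Over the whole locus the medians were -0.017 and -0.080. Merged promoter regions were not split in this way. Both splits are descriptions of overlapping ranges, and members that share a promoter island are counted once each.

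**Figure D4:**
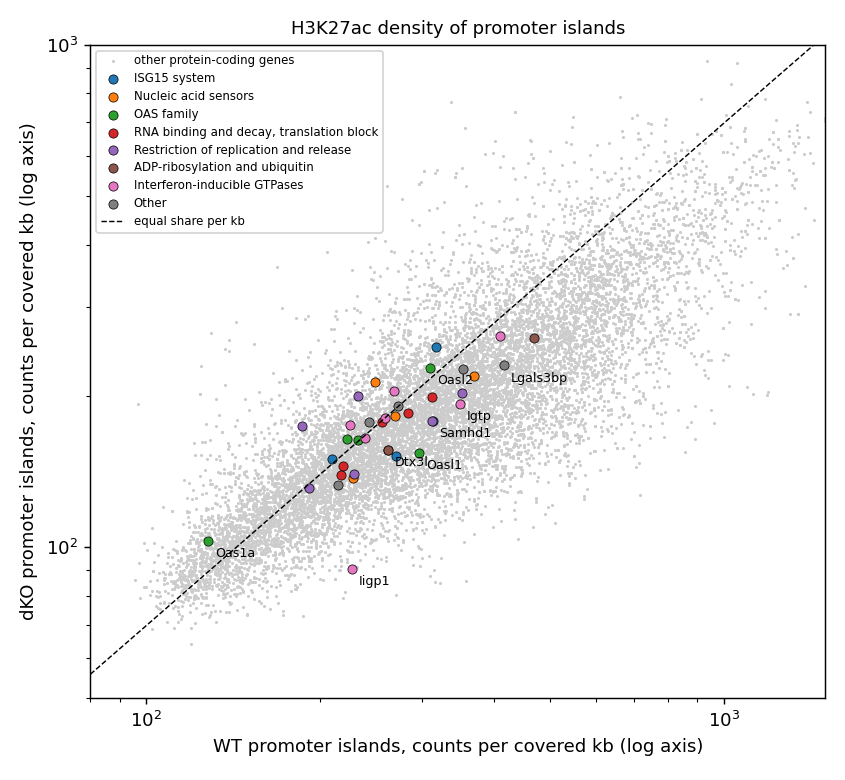
Counts per covered kb of promoter islands in WT (x axis) and dKO (y axis), both on log axes, for members in colour by role group and other protein-coding genes in grey, without those beyond the axis limits. The dashed line marks equal shares of each list's total. Members lie inside the cloud of other genes and on both sides of the line. Iigp1 lies below the other members, at 227 counts per kb in WT and 90.5 in dKO. It passed a ratio of 1.5 toward WT, as did 17.3% of all genes.

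A further 25 genes of the interferon pathway, none of them among the members, were compared. They were receptors, kinases and transducers, regulators, sensors and adaptors, and ligand genes. All 25 had counts in both lists, and the median of their log2 ratios was -0.056, 11 higher and 14 lower in dKO, and 24 had promoter islands in both. Over the locus 0 reached a ratio of 1.5 toward dKO, against 7.05% of genes, and 1 reached it toward WT, against 9.27%. That was Tlr7, an endosomal RNA sensor on chromosome X, with 3592 and 1341 counts and -0.90 (-0.99 to -0.81). Among the receptors Ifnar2 was the highest at 0.15 (0.13 to 0.17) and Ifngr2, a chain of the interferon gamma receptor, the lowest at -0.17 (-0.20 to -0.14). Among the kinases and transducers Tyk2 was the highest at 0.45 (0.42 to 0.48) and Jak1 the lowest at -0.36 (-0.38 to -0.34), and both serve the type I receptor. The regulators ran from -0.076 at Socs1, a feedback inhibitor of Jak kinases, to 0.24 at Irf7, which drives type I interferon genes. Mavs, the adaptor of Ddx58 and Ifih1, was the highest of the sensors and adaptors at 0.0066. Of the ligand genes Ifng stood at 0.15, with promoter islands in both lists, and Ifnb1 at -0.34, with a promoter island in the dKO list alone that held 219 counts. Promoter island counts of the pathway genes spread more widely (median of the log2 ratios 0.088), with 8 of 24 at least 1.5 times higher in dKO, against 12.3% of genes, and 3 at least 1.5 times higher in WT, against 20.8%. At Ifnar1 the promoter island went from 5187 to 19969 counts, or 2.46 on the log2 scale, and spanned 76.6 kb in dKO. Its width stood at 2.94 and its counts per covered kb at -0.47 on that scale. Per covered kb the pathway promoters had a median of -0.15, with 0 called higher and 1 called lower, where 17.3% of genes were called lower.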

How the data were processed

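H3K27ac ChIP-seq was measured in 7 libraries (4 WT, 3 dKO) with 2 inputs. Per the labels and methods, the authors checked reads with FastQC, aligned them to mm9 with Bowtie2 2.2.5, filtered to unique alignments (MAPQ above 10), pooled replicates by genotype and called islands with SICER 1.1 (200 bp window, 400 bp gap, FDR below 0.01). Whether duplicate reads were removed is not given in the sources used here. The deposited values are raw read counts per island, neither scaled nor split by replicate. The inputs were not used here. One label text mentions DNase I digestion, which the methods do not give for ChIP-seq.

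Islands of both lists were merged where they shared 1 bp and summed over loci in Python 3.11.15 (numpy 2.4.6), with gene positions from GENCODE vM1. Merged regions were not cut at the ends of a locus. Ratios used each list's total, with 95% Poisson intervals. Merging was checked on a small made-up list and calls on simulated counts. The simulation held counting error only, with no spread between mice and no shift of island borders, so it does not bear on those. Members and lists were chosen with earlier results of these data known. Every member is accounted for. Those at either end of the ratio, at either end of a role group, without promoter islands or in the study's site and super enhancer lists are described in full, as are the highest and lowest pathway genes of each group; Ifih1, Zbp1 and other members outside that rule are named to complete their group. The older name Mb21d1 was matched through RefSeq synonyms. Alternatives covered scaling, window, region choice, island filters and thresholds.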

Additional observations from a re-analysis of the deposited data

How the results depend on the processing

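No paired analysis was possible because replicates were pooled before islands were called, and no replicate could be left out for the same reason. The median locus log2 ratio of -0.076 became -0.0057 when scaled to regions in both lists and -0.0037 when scaled so that the median of those regions was 0, and the pathway median of -0.056 became 0.015 and 0.017; these scalings shift every locus alike, by 0.073 for the second. Pathway medians were 0.0039 with most of a region required in the window and 0.15 without regions holding another gene's promoter. That last setting left out every region with the promoter of a protein-coding gene that is not a member. The pathway genes' own promoter regions were thus left out as well, and their 0.15 covers only the remaining regions. Counts per covered kb turned Oas1a to -0.10 and Mx2 to 0.089 and left 0 members called higher; 18 members changed sign, 13 of them from higher to lower, members above WT fell from 16 to 8, and 2 of 5 OAS members were above WT. Members called higher numbered 0 with 10 kb or 1 kb upstream, 0 with only regions in both lists, 2 with most of a region required in the window, 5 without other genes' promoters (where Oas1a, which shares its region, has no value), 3 at a ratio of 5 to 4 and 0 at a ratio of 2. Members called lower numbered 1 with most of a region required in the window and with only regions in both lists, 5 with islands of at least 3 CPM, 7 at a ratio of 5 to 4 and 1 at 2. Merged promoter regions, an alternative chosen after seeing the data, gave 0 higher and 1 lower in place of 4 and 8. Iigp1 was lower in dKO under every alternative at loci, from -1.27 to -0.68. The lists give no spread between mice, so ratios near 1.5 are not firm.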

Other observations

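Relatives of the members that were not among the 40, found by their symbols (Oas1, Gbp, Irgm, Trim30 and Isg20 genes), gave 20 further entries of the annotation, all with islands in both lists. Of these 9 were higher and 11 lower in dKO (median of the log2 ratios -0.0034). A ratio of 1.5 toward dKO was reached by 1, where 7.05% of all genes did so, and toward WT by 0, where 9.27% did so. This group was chosen after the members' values had been seen, and many of its entries share regions with each other and with members. The entry that reached 1.5 was Oas1g, with no promoter island in either list, at 1.01 (0.89 to 1.12) from 1001 counts in WT. Irgm2, whose promoter lies in the same region as Igtp, stood at -0.38 (-0.42 to -0.35), and the Gbp genes of chromosome 5 lay between -0.20 and -0.0090. The Ifitm genes of chromosome 7, a family with no member here that restricts viral entry, lie together and stood between 0.35 and 0.39.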
